A study of Mus musculus with 574 samples.

Results

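Pools of GFP positive cells sorted from the developing ventral midbrain were compared between embryonic days E13.5 and E10.5. The comparison took 12 of the 574 samples of the series, 6 pools at each stage, each made of 100 cells and labelled GFP positive, and it covered all genes tested except those on chromosomes X and Y. All cells, also those of the 12 GFP negative pools used beside them, came from C57BL/6 mice heterozygous for Lmx1a-EGFP, a reporter that marks cells expressing the LIM homeodomain factor Lmx1a with green fluorescent protein. How the reporter was built is not described in the labels. RNA was made into Smart-seq2 cDNA, which covers whole transcripts, and Nextera XT libraries, and was sequenced on a HiSeq 2000. Levels are RPKM (reads per kilobase of transcript, scaled to library size), and differences are given as log2(RPKM + 1) at E13.5 minus E10.5 with the standard error of the limma model, a scale that understates the change of genes with low levels. A gene was called higher or lower when its p-value, adjusted over all 15871 genes tested, was under 0.05. No embryo or litter is given in the labels. The p-values therefore reflect how far these pools differ from each other, a spread that may be technical.

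Lmx1a is made in the floor plate of the midbrain, the strip of cells along the ventral midline, and in the caudal diencephalon beside it. Its progenitors divide next to the ventricle, leave the cell cycle, move outward and mature into neurons, among them midbrain dopamine neurons and glutamatergic neurons of the subthalamic nucleus. A bulk pool averages over its cells, so fewer cells of a type and less RNA per cell cannot be told apart.

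The sort was checked first. At E10.5, EGFP lay between 170.4 and 230.7 RPKM (206 ± 21, SD, n = 6). At E13.5 it lay between 51.1 and 80.3 RPKM (60.6 ± 10.46, SD, n = 6). Every E13.5 pool was thus below every E10.5 pool, and the mean fell by 145.5 RPKM (exact permutation test, two-sided, p = 0.00216). The GFP negative pools held 0 to 5.82 RPKM of EGFP at E10.5 and were listed at 0 in all 6 pools at E13.5. Lmx1a itself (chr1:167689237-167848741 of mm10, plus strand) ranged from 63.8 to 85.5 RPKM at E10.5, with a median of 69.7, and from 46.3 to 67.6 RPKM at E13.5, with a median of 56.4. The stages overlapped and the log2 difference of -0.35 ± 0.27 was not past the threshold (limma adjusted p = 0.29). It was called with a pseudocount of 5 (-0.33, adjusted p = 0.0474) and in a fit of the 12 GFP positive pools alone (adjusted p = 0.0182). In GFP negative pools the Lmx1a medians were 1.57 and 2.99 RPKM, so the label GFP positive matched its defining gene at both stages.

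The markers that describe the cells differed far more than Lmx1a. Mapt (chr11:104231390-104332090, plus strand), which encodes the axonal microtubule protein tau, ranged from 1.2 to 4.93 RPKM at E10.5 (median 3.60) and from 535 to 843 RPKM at E13.5 (median 669.7). Its log2 difference of 7.37 ± 0.20 (limma adjusted p = 1.62e-19) was the largest among the named genes. Pitx3 (chr19:46135685-46148326, minus strand), a homeodomain factor of midbrain dopamine neurons, was listed at 0 in 3 E10.5 pools, reached 1.501 RPKM in the highest, and lay between 49.2 and 127.3 RPKM at E13.5 (5.80 ± 0.27, adjusted p = 2.17e-15). Both genes were high in every E13.5 pool, with no overlap between stages.

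Markers of progenitors moved the other way. Vtn (chr11:78499091-78502324, plus strand), which encodes the extracellular protein vitronectin, ranged from 278 to 425 RPKM at E10.5 (median 339) and from 0.321 to 11.7 RPKM at E13.5 (median 2.55), a log2 difference of -6.52 ± 0.36 (adjusted p = 4.55e-14). Top2a (chr11:98992943-99024189, minus strand), the topoisomerase of dividing cells, ranged from 289 to 403 RPKM (median 323) and from 7.22 to 22.9 RPKM (median 12.8), a difference of -4.53 ± 0.47 (adjusted p = 8.43e-09). The lowest E10.5 pool stood above the highest E13.5 pool for both. Top2a was thus still listed above 0 in all 6 pools at E13.5.

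**Figure D1:**
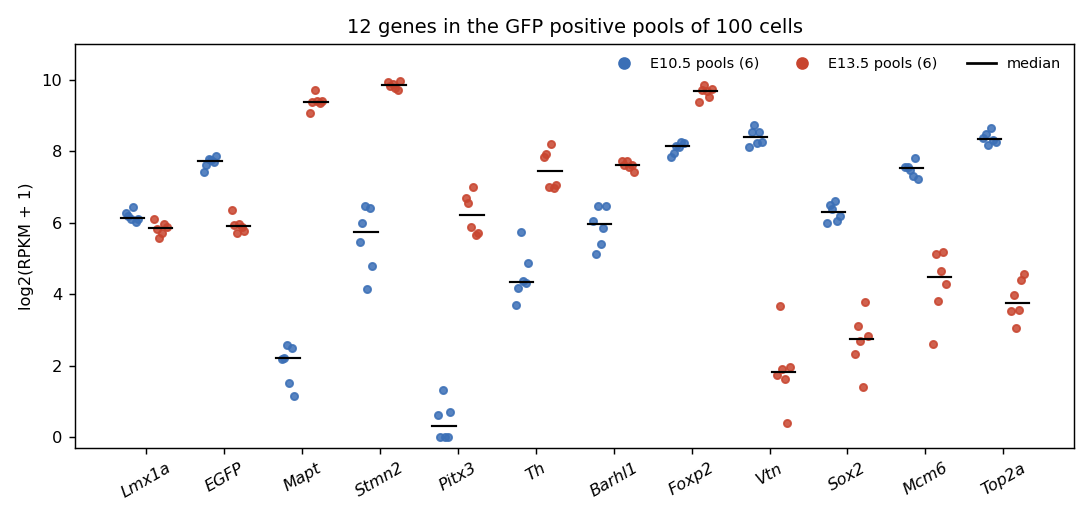
Levels of 12 genes in each GFP positive pool, as log2(RPKM + 1) on the vertical axis, with 6 points per stage and a bar at the median. The stages overlap for Lmx1a and lie apart for EGFP, Mapt, Pitx3, Vtn and Top2a.

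Across all genes, 3337 of 15131 (22.1%) were called higher at E13.5 and 4496 (29.7%) lower, 7833 in all (51.8%). With a difference of at least 2-fold on the log2(RPKM + 1) scale, 2259 were called higher (14.9%) and 2720 lower (18%). The 6 and 6 values did not overlap for 1925 genes on the higher side (12.7%) and 2601 on the lower side (17.2%). The median log2 difference of all genes was -0.135. The largest differences were on the higher side, where 99 genes exceeded a log2 difference of 4 against 32 below -4. The table held no read counts, and the depth implied by its low values was rough: 1.30 to 3.39 M reads for E10.5 pools (median 1.81) and 2.62 to 3.10 M for E13.5 pools (median 2.96). Pearson correlations across genes between pools of a group lay between 0.920 and 0.947 at E10.5 and between 0.911 and 0.926 at E13.5. Without the 3 shallowest E10.5 pools, an alternative added after the data were seen, 2813 genes were called higher and 3828 lower.

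The largest increase after that of Mapt was that of Ndst3, which encodes a heparan sulfate sulfotransferase, with medians of 1.12 RPKM at E10.5 and 182 at E13.5 (log2 difference 6.4). Celf5, an RNA-binding protein of the CELF family, had medians of 1.31 and 201 RPKM (6.29), and Calb2, the calcium-binding protein calretinin, 0.777 and 150.8 RPKM (6.02). Nmnat2, an NAD-synthesizing enzyme of axons, went from 0.126 to 2.90 RPKM at E10.5 to 87.9 to 109.98 RPKM at E13.5, medians 1.10 and 97.2 (5.65 ± 0.22, limma adjusted p = 8.87e-17). The list went on with St8sia3 (5.94), a sialyltransferase, Sez6l (5.91), Pitx3, E130114P18Rik (5.79), Tmem130 (5.77), the proneural-family factor Neurod6 (5.56), Actl6b (5.53) and Dnajc6 (5.34), which encodes the clathrin-uncoating protein auxilin. Each of these genes was chosen for having no overlap between stages, so the separation is a consequence of the choice.

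Among the 15 largest decreases, several encode secreted or surface proteins. Car4, a membrane carbonic anhydrase, ranged from 39.99 to 87.2 RPKM at E10.5 (median 62.97) and was listed at 0 in 5 of the 6 E13.5 pools, with 0.441 RPKM in the other (-5.93 ± 0.39, limma adjusted p = 1.64e-12). Car14, another carbonic anhydrase, had medians of 75.9 and 2.02 RPKM (-4.36). Dkk2, a secreted regulator of Wnt receptors, had medians of 68.99 and 1.25 RPKM (-5.18), and the ligand Wnt5b 48.02 and 1.47 RPKM (-4.30). Calca, the calcitonin peptide precursor, had medians of 60.4 and 0.187 RPKM (-5.14), and the membrane protein gene Cmtm8 had 142.4 and 3.005 RPKM (-5.48). A second set is made of cell cycle genes: Ccnb1 (-4.57), Top2a, Gins2 (-4.45) and 2810417H13Rik (-4.30), the PCNA-binding factor now named Pclaf in RefSeq. The remaining genes were Vtn, Lrtm1 (-4.91), the IgG receptor gene Fcgrt (-4.45), the transcript 2810408I11Rik (-4.43) and Gm15452 (-5.13), a processed pseudogene whose reads may belong to its parent gene.

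The dividing-cell programme was lower throughout. Of 26 mitosis genes, 26 were called lower, with a median log2 difference of -3.51, and of 25 S phase genes, 25 were called lower, with a median of -2.74. The share of all genes called lower was 29.7%, and their median -0.135. The summed level of the mitosis genes was 3864 to 5039 RPKM in the E10.5 pools and 138.1 to 485 RPKM in the E13.5 pools. For the S phase genes the sums were 2624 to 3085 RPKM and 402 to 651 RPKM. As a share of the summed RPKM of a pool, mitosis genes took 0.512% to 0.667% at E10.5 and 0.0190% to 0.0689% at E13.5. The E13.5 pools were not alike: pool 3 (pools numbered in accession order) had the lowest mitosis sum and the lowest value of 16 of the 26 genes, while pool 5 had the highest value of 14 of the 25 S phase genes.

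Named members show the size of the change. Cdk1, the kinase that drives entry into mitosis, ranged from 285 to 483 RPKM at E10.5 (median 399) and from 2.88 to 50.5 RPKM at E13.5 (median 31.4), a log2 difference of -4.04 ± 0.56 (limma adjusted p = 1.04e-06). Its partner cyclin Ccnb1 ranged from 243 to 295 RPKM and from 1.49 to 25.6 RPKM. Ube2c, which marks mitotic proteins for destruction, had medians of 661 and 61.1 RPKM (-4.03), and Aurkb, a kinase of chromosome segregation, 118.02 and 7.04 RPKM (-4.25). Every E10.5 pool was above every E13.5 pool for these genes. The smallest mitosis difference was that of Kif20b, a kinesin, at -2.62.

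The S phase genes supply nucleotides and unwind and copy DNA. Rrm2, a subunit of ribonucleotide reductase, ranged from 334 to 394 RPKM (median 355) and from 11.6 to 32.9 RPKM (median 17.9), a difference of -4.11 ± 0.28 (limma adjusted p = 4.29e-12). Mcm6, a subunit of the replicative helicase, ranged from 147.03 to 222 RPKM (median 183) and from 5.12 to 34.99 RPKM (median 21.3), a difference of -3.22 ± 0.34 (adjusted p = 9.84e-09). Pcna, the polymerase clamp, had medians of 244 and 35.7 RPKM (-2.72), and Gins2, a helicase partner, 121.01 and 4.75 RPKM (-4.45). Mcm7, of the same helicase as Mcm6, had the smallest S phase difference, with medians of 229 and 82.9 RPKM (-1.38). The stages did not overlap for any of the 51 genes of the lists for S phase and mitosis, against 17.2% of all genes on the lower side.

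These genes are known to be controlled through short promoter elements: a CCAAT box, the E2F site of S phase genes and the cell cycle homology region (CHR) of mitosis genes. The promoters below are shown because the genes moved together and hold these letters. They are RefSeq sequence of the build GRCm38.p6, read 5′ to 3′ along the gene and ending at the base before the annotated start. Capitals mark the letters TTTGAA (CHR), CCAAT or TTTNNCGC (E2F) on either strand, with N for any base. Top2a is chr11:99024190-99024309, Cdk1 chr10:69352913-69353052, Cdc20 chr4:118437344-118437443 and Mcm6 chr1:128359706-128359835, all on the minus strand.
Top2a: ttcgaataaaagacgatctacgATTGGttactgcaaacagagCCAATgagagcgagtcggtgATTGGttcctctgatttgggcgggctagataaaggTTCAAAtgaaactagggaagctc
Cdk1: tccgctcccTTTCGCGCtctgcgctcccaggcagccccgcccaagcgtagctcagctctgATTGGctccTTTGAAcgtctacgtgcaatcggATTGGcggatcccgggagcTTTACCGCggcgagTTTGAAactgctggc
Cdc20: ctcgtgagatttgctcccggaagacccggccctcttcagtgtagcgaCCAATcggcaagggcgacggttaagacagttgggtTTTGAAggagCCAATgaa
Mcm6: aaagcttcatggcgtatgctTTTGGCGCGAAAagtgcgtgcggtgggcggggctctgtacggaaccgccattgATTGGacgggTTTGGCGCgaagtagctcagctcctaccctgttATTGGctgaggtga
The Top2a stretch holds 1 CHR match and 3 CCAAT matches, and that of Cdc20, an activator of mitotic destruction, 1 and 2. The Cdk1 stretch holds 2 CHR, 2 CCAAT and 2 E2F matches. The Mcm6 stretch holds 2 CCAAT and 3 E2F matches, of which 1 pair overlaps.

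The share of promoter windows with these letters was counted over windows of the 250 bases before each start. TTTGAA was in 8 of 23 windows of mitosis genes (34.8%), 3 of 25 of S phase genes (12%), 1 of 17 of pan-neuronal genes (5.88%), 6 of 28 of synaptic genes (21.4%), 6 of 34 of dopamine genes (17.6%) and 10.1% of the 12921 windows of all tested genes with an entry. CCAAT was in 16 of 23 windows of mitosis genes (69.6%), 16 of 25 of S phase genes (64%), 4 of 17 of pan-neuronal genes (23.5%), 6 of 28 of synaptic genes (21.4%), 6 of 34 of dopamine genes (17.6%) and 35.2% of windows of tested genes. TTTNNCGC was in 6 of 25 windows of S phase genes (24%), 1 of 23 of mitosis genes (4.35%), 0 of 17 of pan-neuronal genes, 3 of 28 of synaptic genes (10.7%), 1 of 34 of dopamine genes (2.94%) and 6.62% of windows of tested genes. A match is a description of the sequence and not a bound site, and windows of 1 gene can overlap.

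Regulators of cell cycle entry and exit were mixed. Of 19 tested genes (21 listed), 12 were called lower and 3 higher, with a median log2 difference of -1.42. The shares of all genes were 29.7% and 22.1%. The cyclin Ccnd2, which drives the G1 phase in neural progenitors, ranged from 195 to 307 RPKM at E10.5 (median 261) and from 11.48 to 26.4 RPKM at E13.5 (median 19.1), a difference of -3.76 ± 0.18 (limma adjusted p = 3.25e-15). Ccnd1 (-2.56), Cdk2 (-3.21) and Cdk4 (-1.31) were also called lower. The inhibitors that hold cells out of the cycle did not move as 1 group. Cdkn1a had medians of 2.12 and 10.53 RPKM (1.53) and Cdkn2d 34.5 and 52.6 RPKM (0.59), both called higher with overlapping pools, Cdkn1c had 95.4 and 66.2 RPKM and was called lower (-0.51), and Cdkn1b had 5.04 and 3.87 RPKM (-0.25, adjusted p = 0.476). The call of Cdkn1a was lost in 1 alternative setting.

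The progenitor and radial glia genes, which mark the dividing cells of the ventricular zone, were more divided. Of 22 genes, 14 were called lower and 1 higher, with a median of -1.31, beside 29.7% and 22.1% of all genes. Sox2, a transcription factor of neural stem cells, ranged from 63.1 to 95.9 RPKM at E10.5 (median 77.3) and from 1.63 to 12.7 RPKM at E13.5 (median 5.74), a difference of -3.60 ± 0.30 (limma adjusted p = 1.09e-10). Hes1, a repressor downstream of Notch, ranged from 439 to 557 RPKM (median 526) and from 19.6 to 62.6 RPKM (median 46.8), a difference of -3.56 ± 0.26. Neither gene's stages overlapped. Its relative Hes5 fell less, from a median of 902 RPKM to 474 RPKM (-0.91), and kept at least 338 RPKM in every E13.5 pool. Nes (-1.90) and Vim (-1.52), intermediate filament genes, and Id3 (-2.83), an inhibitor of bHLH factors, were called lower as well.

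Some radial glia genes did not follow. Fabp7, a lipid-binding protein of radial glia, ranged from 119.2 to 409 RPKM at E10.5 (median 202) and from 423 to 809 RPKM at E13.5 (median 653), and was called higher (1.52 ± 0.38, limma adjusted p = 0.00143). Sox9, a factor of progenitors and glia, had medians of 157.96 and 179.6 RPKM (0.19, adjusted p = 0.203), and the glutamate transporter gene Slc1a3 43.1 and 51.8 RPKM (0.13, adjusted p = 0.831). In GFP negative pools Fabp7 was called lower (medians 836 and 217 RPKM, log2 difference -1.70), and so was Sox9 (103.7 and 51.2 RPKM, -0.93). The stage difference of the GFP positive pools minus that of the GFP negative pools, tested in the same model, was 3.22 ± 0.54 for Fabp7 (adjusted p = 0.000286) and 1.11 ± 0.17 for Sox9 (adjusted p = 9.52e-05). Of the 22 genes, 10 were above 0 in that test and 0 below, beside 3.95% and 1.86% of all genes.

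Proneural factors and Notch ligands, which start neurogenesis, were called higher in 4 of 18 and lower in 6, with a median of -0.06. The shares of all genes, 22.1% and 29.7%, were close to these counts. Neurog1 had medians of 5.54 and 0 RPKM (-2.66) and the ligands Dll1 64.6 and 17.7 RPKM (-1.98) and Jag1 17.3 and 1.21 RPKM (-3.0), all called lower. Neurog2, the main proneural factor of dopamine progenitors, had medians of 17.8 and 11.3 RPKM with overlapping pools (-0.51, limma adjusted p = 0.223). The other members were mixed. Neurod4 (6.09 and 0.847 RPKM, -1.60), Btg2 (-1.04) and Gadd45g (-0.84) were called lower as well. Neurod1 (0.60, adjusted p = 0.109), Insm1 (0.05, adjusted p = 0.891) and Hes6 (0.20, adjusted p = 0.382) did not pass the threshold. Besides Neurod6, the genes called higher were Nhlh1, Nhlh2 and Neurod2. Nhlh1 had medians of 5.29 and 23.4 RPKM (2.05), Nhlh2 21.2 and 76.7 RPKM (1.77) and Neurod2 0 and 7.79 RPKM (3.14), and the pools of the stages did not overlap for these 3 genes. The ligand Dll3 of newborn neurons had medians of 71.2 and 86.7 RPKM (0.40, adjusted p = 0.299).

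**Figure D2:**
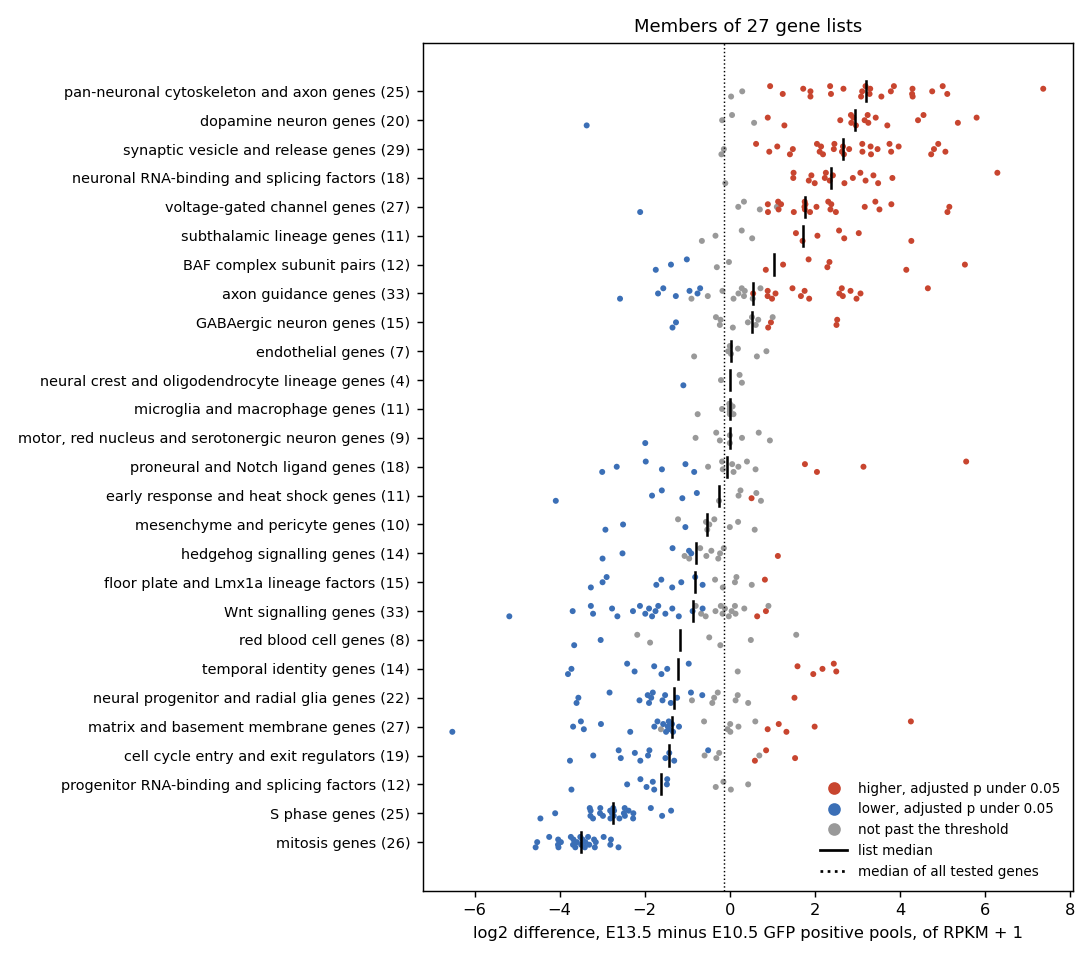
Log2 differences (E13.5 minus E10.5, GFP positive pools, horizontal axis) of the tested members of 27 gene lists, each a point, in red where called higher, blue where called lower and grey otherwise, with a black line at the list median and a dotted line at the median of all genes, -0.135. The S phase and mitosis lists lie wholly on the lower side, and the pan-neuronal and synaptic lists hold no gene called lower.

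Floor plate and Lmx1a lineage factors, which give these cells their regional identity, were lower in part. Of 15 genes, 9 were called lower and 1 higher, with a median of -0.81, beside 29.7% and 22.1% of all genes. Shh, the signal secreted by the floor plate, ranged from 50.8 to 81.9 RPKM at E10.5 (median 66.9) and from 4.92 to 8.92 RPKM at E13.5 (median 7.80), a difference of -2.99 ± 0.29 (limma adjusted p = 2.82e-09). Ferd3l, a bHLH repressor of floor plate progenitors, had medians of 13.53 and 1.43 RPKM (-2.90), and the midbrain factor Otx2 308 and 93.3 RPKM (-1.73). The forkhead factors fell by less: Foxa1 had medians of 101.7 and 45.96 RPKM (-1.14) and Foxa2 128.6 and 72.5 RPKM (-0.81). Factors that did not pass the threshold were Lmx1b, with medians of 44.6 and 65.5 RPKM and no overlap between stages (0.52, adjusted p = 0.192), and Msx1, with 17.4 and 19.2 RPKM (0.16, adjusted p = 0.763). En1, a homeodomain factor of the midbrain and hindbrain, was called higher, with medians of 17.5 and 30.4 RPKM (0.82). The membrane protease gene Corin (-1.35) and the R-spondin gene Rspo2 (-0.64, adjusted p = 0.0462) were called lower with overlapping pools, and the call of Corin was lost in 1 alternative setting. That of Rspo2 was lost in 9 of the 12 fits that left out 1 pool and in 5 other settings (adjusted p up to 0.405).

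Dopamine neuron genes were mainly higher, 16 of 20, with 1 lower and a median of 2.93, beside 22.1% of all genes called higher. Nr4a2, the nuclear receptor that specifies dopamine neurons, ranged from 9.55 to 28.2 RPKM at E10.5 (median 13.4) and from 279 to 421 RPKM at E13.5 (median 342), a difference of 4.42 ± 0.27 (limma adjusted p = 5.2e-13). Th, tyrosine hydroxylase of dopamine synthesis, ranged from 11.9 to 52.4 RPKM (median 19.3) and from 124.96 to 291 RPKM (median 179.8), a difference of 2.97 ± 0.62 (adjusted p = 0.000258). Ddc, the next enzyme, had medians of 13.1 and 187 RPKM (3.70), Gch1, which starts synthesis of the cofactor of Th, 1.45 and 10.6 RPKM (2.60), and Slc18a2, the vesicular transporter, 4.002 and 42.8 RPKM (3.24). The plasma membrane transporter Slc6a3 was near 0 at E10.5 (highest 0.222 RPKM) and spread from 5.88 to 65.05 RPKM at E13.5 (median 27.8). For all of these genes every E13.5 pool was above every E10.5 pool.

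The E13.5 pools differed among themselves in Th and Pitx3. Th was at 227, 241 and 290.5 RPKM in pools 1, 2 and 4 and between 124.96 and 132.4 RPKM in the others. Pitx3 was at 92.1 to 127.3 RPKM in the same 3 pools and between 49.2 and 57.96 RPKM in the others. The gene that went the other way was Aldh1a1, a retinaldehyde dehydrogenase of a dopamine neuron subset and of early floor plate cells. It ranged from 13.7 to 36.7 RPKM at E10.5 (median 25.1) and from 0 to 8.94 RPKM at E13.5 (median 0.532), a difference of -3.37 ± 0.45 (limma adjusted p = 5.86e-07).

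Subthalamic lineage genes were higher in 7 of 11 tested genes (12 listed) and lower in 0, with a median of 1.71. The shares of all genes were 22.1% and 29.7%. Barhl1, a homeodomain factor of this lineage, ranged from 33.97 to 87.3 RPKM at E10.5 (median 61.3) and from 168.7 to 212 RPKM at E13.5 (median 194), a difference of 1.71 ± 0.37 (limma adjusted p = 0.000343). Foxp2, a forkhead factor, ranged from 226 to 304 RPKM (median 280.1) and from 662 to 916 RPKM (median 824), a difference of 1.55 ± 0.20 (adjusted p = 3.68e-07). The pools of the stages stood apart for both. Ebf2 had medians of 9.24 and 73.3 RPKM (2.69), Ebf3 5.44 and 47.9 RPKM (3.03), and the glutamate vesicle transporter Slc17a6 2.57 and 75.7 RPKM (4.27). The Wnt ligand Wnt8b (69.3 and 56.3 RPKM, adjusted p = 0.332) and the homeodomain factor Dbx1 (149.99 and 99.4 RPKM, adjusted p = 0.121), did not pass the threshold, nor did Barhl2 (14.7 and 19.6 RPKM, adjusted p = 0.201). The subthalamic members were already present at E10.5, with a summed level of 713 to 871 RPKM, against 152.9 to 231 RPKM for the dopamine list. At E13.5 the sums were 1781 to 2081 RPKM and 1356 to 2188 RPKM.

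Genes shared by most neurons gave the highest list median. Of 25 pan-neuronal cytoskeleton and axon genes tested (26 listed), 23 were called higher and 0 lower, with a median of 3.19. Among all genes 22.1% were called higher and 29.7% lower. Their summed level was 4249 to 5261 RPKM at E10.5 and 22917 to 25514 RPKM at E13.5, or 0.562% to 0.695% and 3.06% to 3.62% of a pool's summed RPKM. Rtn1, a reticulon of the neuronal endoplasmic reticulum, ranged from 32.7 to 74.6 RPKM at E10.5 (median 50.4) and from 1489 to 2009 RPKM at E13.5 (median 1681), a difference of 5.11 ± 0.16 (limma adjusted p = 1.92e-18). Tubb3, a neuronal tubulin whose reads can be shared with other tubulins, ranged from 174.7 to 252 RPKM and from 1685 to 1883 RPKM (3.09 ± 0.13). Map2, a dendritic microtubule protein, had medians of 69.5 and 612 RPKM (3.11), and Gap43, of growth cones, 22.3 and 518 RPKM (4.29). The neurofilament genes rose to lower levels: Nefl had medians of 2.93 and 34.7 RPKM (3.19) and Nefm 0.423 and 9.60 RPKM (2.38), whereas Ina, of the same family, had 9.43 and 206 RPKM (4.76). Dpysl2, an axon growth protein, was near level at 53.7 and 63.2 RPKM (0.29, adjusted p = 0.0884).

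Genes for release of transmitter and for excitability were mainly higher. Of 29 synaptic vesicle and release genes, 27 were called higher and 0 lower, with a median of 2.66. Of 27 voltage-gated channel genes, 22 were called higher and 1 lower, with a median of 1.77. Among all genes 22.1% were called higher and 29.7% lower. The calcium sensor Syt1 ranged from 0.637 to 11.53 RPKM (median 4.26) and from 105.4 to 188 RPKM (median 126.4), a difference of 4.80 ± 0.34 (limma adjusted p = 8.27e-12). Snap25, of the fusion complex, had medians of 5.89 and 62.8 RPKM (3.11), and Syt4 1.27 and 113.3 RPKM (5.07). Rab3b, a vesicle GTPase, had 45.5 and 44.7 RPKM (-0.14, adjusted p = 0.752) and Cplx2, a complexin, 14.04 and 12.1 RPKM (-0.20, adjusted p = 0.516). Among channels, the presynaptic calcium channel Cacna1b had medians of 0.518 and 58.1 RPKM (5.16), and the sodium channel subunit Scn3b 12.97 and 151.9 RPKM (3.42). The gene called lower was the potassium channel Kcnh2, with 19.2 and 4.19 RPKM (-2.11).

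RNA-binding and splicing factors split by list. Of 18 neuronal factors, 17 were called higher (median 2.39), beside 22.1% of all genes. Of 12 progenitor factors tested (13 listed), 8 were called lower (median -1.63), beside 29.7% of all genes. Elavl4, an mRNA-stabilizing protein of neurons, ranged from 39.9 to 84.8 RPKM (median 56.1) and from 269.9 to 349.5 RPKM (median 318), a difference of 2.42 ± 0.21 (limma adjusted p = 3.67e-10). Celf4 had medians of 7.47 and 134.9 RPKM (3.82) and the splicing factor Rbfox1 0.939 and 22.9 RPKM (3.49). Ptbp1, the splicing repressor of non-neuronal cells, ranged from 107.98 to 158.6 RPKM (median 125.7) and from 37.3 to 79.9 RPKM (median 40.97), a difference of -1.48 ± 0.20 (adjusted p = 5.19e-07). Its neuronal paralog Ptbp2 had 86.8 and 82.6 RPKM with overlapping pools (-0.11, adjusted p = 0.507).

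The BAF chromatin remodeller exchanges subunits when neurons leave the cell cycle, and its paired subunit genes were compared here. Actl6b, the neuronal actin-like subunit, ranged from 0.244 to 7.43 RPKM at E10.5 (median 1.46) and from 84.8 to 152.1 RPKM at E13.5 (median 129.9), a difference of 5.53 ± 0.30 (limma adjusted p = 3.72e-14). Its progenitor counterpart Actl6a had medians of 237 and 113.5 RPKM (-1.01) and remained at 91.3 RPKM or more in every E13.5 pool. Thus both were present at E13.5. Dpf1 had medians of 11.1 and 63.4 RPKM (2.29) and Dpf3 0 and 22.4 RPKM (4.15), against Phf10 with 47.4 and 18.4 RPKM (-1.74). Ss18l1 had medians of 7.10 and 41.4 RPKM (2.34), against Ss18 with 39.1 and 15.6 RPKM (-1.38). Of the 12 genes, 7 were called higher and 3 lower, beside 22.1% and 29.7% of all genes. The 2 not called were Smarcc1 (-0.02) and Dpf2 (-0.31).

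Temporal identity genes, which change with developmental age in many neural lineages, gave 5 higher and 8 lower of 14 tested (15 listed), with a median of -1.22. The shares of all genes were 22.1% and 29.7%. Lin28a, an RNA-binding protein that blocks let-7 microRNA maturation, ranged from 8.38 to 15.8 RPKM at E10.5 (median 11.8) and was listed at 0 in all 6 E13.5 pools (-3.72 ± 0.23, limma adjusted p = 6.9e-13). Its paralog Lin28b had medians of 13.3 and 1.60 RPKM (-2.41), and Hmga2, a chromatin protein of young stem cells, 20.97 and 0.626 RPKM (-3.81). The nuclear factor genes Nfia (2.43 and 9.70 RPKM, 1.96) and Nfib (4.62 and 27.9 RPKM, 2.18) were called higher. The stages did not overlap for any of these 5 genes, and the stage difference was not called different between GFP classes for Lin28a (adjusted p = 0.573), Hmga2 (adjusted p = 0.846), Nfia (adjusted p = 0.959) or Nfib (adjusted p = 0.23).

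Of 33 Wnt signalling genes tested (41 listed), 18 were called lower and 2 higher, with a median of -0.88, beside 29.7% and 22.1% of all genes. Among ligands, Wnt1, made in stripes beside the floor plate midline, ranged from 33.3 to 57.3 RPKM at E10.5 (median 44.6) and from 0 to 11.99 RPKM at E13.5 (median 3.86), a difference of -3.27 ± 0.39 (limma adjusted p = 7.68e-08). Wnt5a had medians of 149.8 and 153.2 RPKM (0.12, adjusted p = 0.752), while in GFP negative pools its medians were 98.2 and 7.4 RPKM, and the difference between classes was 3.48 ± 0.40 (adjusted p = 2.38e-06). Among receptors, the 2 genes called higher were Fzd3 (289 and 449 RPKM, 0.64) and Fzd10 (3.08 and 6.64 RPKM, 0.85), the latter losing its call in 1 alternative setting. Among nuclear effectors and targets, Lef1 (24.4 and 5.23 RPKM, -1.99), Tcf7l1 (65.2 and 2.55 RPKM, -3.70) and Sp5 (36.2 and 2.77 RPKM, -3.22) were called lower, and the feedback gene Axin2 was at 42.4 and 39.4 RPKM (-0.17, adjusted p = 0.529).

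In the hedgehog pathway, 5 of 14 genes were called lower and 1 higher, with a median of -0.80. The count on the lower side was near the 29.7% of all genes. Beside the ligand Shh, the signal transducer Smo had medians of 26.6 and 3.60 RPKM (-2.52), with no overlap between stages. The receptor and target gene Ptch1 had 10.8 and 9.28 RPKM with overlapping pools (-0.23, limma adjusted p = 0.458). Calls for the target Gli1 (0.690 and 0 RPKM, -0.96) and the coreceptor Cdon (2.32 and 4.73 RPKM, 1.13) were lost in 1 and 2 alternative settings.

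Of 33 axon guidance genes, 16 were called higher and 7 lower, with a median of 0.55, beside 22.1% and 29.7% of all genes. Among receptors, Dcc, a netrin receptor, ranged from 7.15 to 16.2 RPKM (median 10.3) and from 64.4 to 110.9 RPKM (median 79.3), a difference of 2.84 ± 0.25 (limma adjusted p = 3.41e-10). The Slit receptors Robo1 (3.32 and 35.6 RPKM, 3.07) and Robo2 (0.753 and 36.3 RPKM, 4.66) were higher without overlap. Among midline ligands, Ntn1 had medians of 109.2 and 38.5 RPKM (-1.56), Slit2 415 and 238 RPKM (-0.95) and Slit3 21.97 and 1.83 RPKM (-2.58), all called lower with no overlap between stages. Slit1, of the same family, had 29.8 and 28.3 RPKM with overlapping pools (-0.17, adjusted p = 0.597).

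Matrix and basement membrane genes were called lower in 16 of 27 tested genes (29 listed) and higher in 5, with a median of -1.36. The shares of all genes were 29.7% and 22.1%. Fn1, fibronectin, ranged from 52.3 to 68.5 RPKM (median 61.7) and from 4.58 to 17.7 RPKM (median 5.56), a difference of -3.03 ± 0.24 (limma adjusted p = 8.24e-11). The basement membrane collagens Col4a1 (14.98 and 0.486 RPKM, -3.50) and Col4a2 (32.98 and 1.31 RPKM, -3.69) were lower as well. Ncan, a proteoglycan of the neural matrix, went the other way, from 1.97 to 4.59 RPKM (median 3.07) to 63.05 to 98.3 RPKM (median 76.6), a difference of 4.26 ± 0.18 (adjusted p = 3.34e-16). Vcan, of the same family, had medians of 16.1 and 35.8 RPKM (1.33). Of 11 early response and heat shock genes tested (12 listed), which tissue dissociation can induce, 5 were called lower and 1 higher. These counts stand beside 29.7% and 22.1% of all genes, and the list median was -0.25, beside -0.135. Called lower were, among others, Atf3 (22.8 and 0.084 RPKM, -4.09), Jun (41.2 and 9.83 RPKM, -1.83) and Fos (101.2 and 64.3 RPKM, -0.78). Egr1 was called higher with overlapping pools (78.8 and 105.9 RPKM, 0.51, adjusted p = 0.0493). Dusp1 (0.25), Junb (0.73) and Hsph1 (0.21) did not pass the threshold.

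The same contrast in the GFP negative pools, 6 at each stage, shows which differences the classes shared. There 2965 genes (19.6%) were called higher and 4091 (27%) lower, 7056 in all (46.6%). Of 5477 genes called in both classes, 5439 had the same sign, 2289 higher and 3150 lower. The difference between the classes in their stage difference was called above 0 for 597 genes (3.95%) and below 0 for 281 (1.86%), 878 in all (5.8%). It was called for 0 of the 25 S phase genes and 0 of the 26 mitosis genes by limma, where an unadjusted p under 0.05 was reached by 1 and 2 of them. For Vtn it was 0.08 ± 0.50 (adjusted p = 0.962) and for Top2a -0.56 ± 0.67 (adjusted p = 0.727), with errors too wide to show that the changes were equal.

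**Figure D3:**
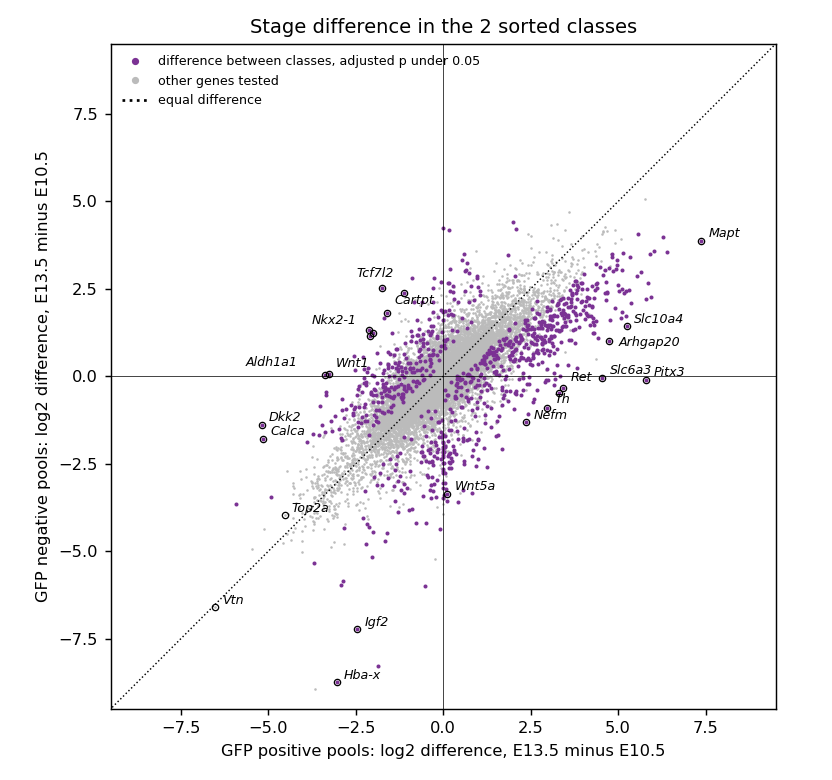
Stage difference of each gene in GFP positive pools (one axis) and in GFP negative pools (the other), both E13.5 minus E10.5 in log2(RPKM + 1), with a dotted line of equality, purple for the 878 genes whose 2 differences were called unequal and rings around named genes. Pitx3, Mapt and Th lie on the side of a larger increase in GFP positive pools, and Tcf7l2 and Dkk2 on the side of a larger decrease.

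For pan-neuronal genes the difference between classes was called above 0 in 22 of 25 and below 0 in 0, beside 3.95% and 1.86% of all genes. Other neuron lists gave other counts. It was called above 0 for 11 of 29 synaptic genes, 9 of 18 neuronal RNA-binding factors and 4 of 27 voltage-gated channel genes. Of the 15 GABAergic genes, 0 were above 0 by limma (1 at an unadjusted p under 0.05) and 4 below 0. For Mapt it was 3.5 ± 0.29 (limma adjusted p = 1.75e-08), and the GFP negative medians were already 46.1 RPKM at E10.5 and reached 614 RPKM at E13.5. For Rtn1 it was 2.63 ± 0.23, with GFP negative medians of 431 and 2300.1 RPKM. For Nefm it was 3.69 ± 0.51 (adjusted p = 2.43e-05), with GFP negative medians of 32.5 and 11.9 RPKM. At E13.5 the pan-neuronal sums were 22917 to 25514 RPKM in GFP positive and 25852 to 29426 RPKM in GFP negative pools, after 4249 to 5261 and 8714 to 12696 RPKM at E10.5. The classes thus lay further apart at E10.5. By contrast, the sums of mitosis genes were 3864 to 5039 RPKM in GFP positive and 2130.0 to 2963 RPKM in GFP negative pools at E10.5.

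Dopamine genes were among the most unequal. For the dopamine list the difference between classes was called above 0 in 11 of 20 and below 0 in 1, and for the subthalamic list in 5 of 11 and 0. Pitx3 had a value of 5.89 ± 0.39 (limma adjusted p = 2.92e-10), with a GFP negative median of 0 RPKM at both stages. Slc6a3 (4.60), Th (3.88), Slc10a4 (3.82), a transporter-like protein of vesicles in monoamine neurons, and Ret (3.76), the GDNF receptor, were other examples. Others were the vesicle protein gene Syt10 (3.78) and Arhgap20 (3.73). The stage difference within GFP negative pools was -0.91 for Th, -0.05 for Slc6a3 and -0.33 for Ret. The dopamine list was not absent from GFP negative pools. At E10.5 it summed to 266 to 501 RPKM there, above the 152.9 to 231 RPKM of GFP positive pools. At E13.5 the sums were 403 to 562.5 RPKM in GFP negative and 1356 to 2188 RPKM in GFP positive pools. Ret was listed at 0 in 4 of the 6 E10.5 GFP positive pools and lay between 6.56 and 17.3 RPKM at E13.5. For Barhl1 the difference of 1.34 ± 0.52 did not pass the threshold (adjusted p = 0.146), and for Ebf2 it did (3.08 ± 0.38, adjusted p = 4.67e-06).

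On the opposite side stood genes that fell further in GFP positive pools or rose in GFP negative ones. Tcf7l2, a Wnt effector of the thalamus and caudal diencephalon, had GFP positive values of 83.2 to 153.6 RPKM (median 103.9) and 17.6 to 52.9 RPKM (median 31.1), and GFP negative medians of 104.3 and 726 RPKM. The difference between classes was -4.28 ± 0.36 (limma adjusted p = 2.33e-08). The hypothalamic factors Nkx2-1 (GFP positive medians 16.4 and 3.04 RPKM, GFP negative 19.9 and 49.8 RPKM, -3.45), Nkx2-4 (14.03 and 3.28 RPKM against 3.91 and 8.95 RPKM, -3.25) and Foxb1 (12.9 and 2.09 RPKM against 9.11 and 21.8 RPKM, -3.24) showed opposite directions that were called in both classes, as did Nav3 (-3.52) and the peptide gene Cartpt (-3.41). For Cartpt the GFP positive call was lost in 8 of the 12 fits that left out 1 pool and in 6 other settings (adjusted p up to 0.682). Dkk2 (-3.80), Calca (-3.35), Aldh1a1 (-3.40) and Wnt1 (-3.32) were low or at 0 in GFP negative pools throughout, the highest of their GFP negative medians being 7.92 RPKM for Calca at E10.5.

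Hba-x and Igf2 also had large values, 5.71 ± 1.66 (limma adjusted p = 0.0382) and 4.78 ± 1.10 (adjusted p = 0.00724), as had the globin gene Hbb-bh1 (6.395, adjusted p = 0.0172) and the collagen gene Col3a1 (5.47, adjusted p = 3.57e-09). The decrease in GFP negative pools was the larger one for each of these 4 genes. Hba-x, an embryonic α-globin whose reads can be shared with other globins, had GFP negative medians of 5578 and 6.02 RPKM and GFP positive medians of 9.61 and 0 RPKM. The 8 red blood cell genes tested (12 listed) summed to 42.1 to 78412 RPKM in E10.5 GFP negative pools and to 38.8 to 79.9 RPKM in E10.5 GFP positive ones, and to 3.82 to 25.6 RPKM in E13.5 GFP positive pools. Igf2, a growth factor of mesenchyme and vessels, had GFP negative medians of 238 and 0.398 RPKM and GFP positive medians of 31.4 and 3.76 RPKM. The 10 mesenchyme and pericyte genes tested (14 listed) summed to 125.2 to 408 RPKM in E10.5 GFP negative pools, to 7.48 to 34.4 RPKM in E10.5 GFP positive pools and to 0.193 to 5.37 RPKM in E13.5 GFP positive pools. Their part in these results was not tested.

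Markers of other cell types were low in the GFP positive pools. The 11 microglia and macrophage genes tested (13 listed) summed to 1.17 to 6.00 RPKM at E10.5, with 7 at 0 in all 6 pools, and to 0 to 8.67 RPKM at E13.5, with 6 at 0. By limma, 0 of them and 0 of the 7 endothelial genes tested (12 listed) were called, and 0 of either list had an unadjusted p under 0.05. The spread in that test was shared with the GFP negative pools, so it could not show small differences among the GFP positive ones. In E10.5 GFP negative pools the microglia and macrophage genes summed to 7.72 to 769 RPKM and the endothelial genes to 25.4 to 175.4 RPKM. The endothelial genes summed to 6.34 to 13.8 RPKM at E10.5 and to 7.30 to 19.5 RPKM at E13.5. Among mesenchyme genes 3 of 10 were called lower, a count near the 29.7% of all genes, among them Lum (9.75 and 0 RPKM) and Dcn (5.14 and 0 RPKM), whereas Col3a1 was at 0.133 and 0 RPKM. The 15 GABAergic neuron genes summed to 9.47 to 41.5 RPKM at E10.5 and to 13.1 to 55.6 RPKM at E13.5, against 532 to 817 RPKM in E13.5 GFP negative pools. Of these, 4 were called higher in GFP positive pools, a count near the 22.1% of all genes, among them Gad2 (0 and 5.21 RPKM, 2.51) and Sst (0 and 7.20 RPKM, 2.52). Gad1 was another of them (0 and 0.882 RPKM, 0.97), and its call was lost in 9 of the 12 fits that left out 1 pool and in 4 other settings. The 2 called lower were the factors Tal2 (2.77 and 0.387 RPKM, -1.35) and Lhx5 (9.44 and 3.43 RPKM, -1.27). Of 9 motor, red nucleus and serotonergic genes tested (14 listed), 1 was called lower, the factor Nkx6-1 (7.10 and 0.817 RPKM, -1.99). Of 4 neural crest and oligodendrocyte lineage genes tested (9 listed), 1 was called lower, the bHLH factor Olig2 (2.26 and 0.147 RPKM). The call of Olig2 was lost in several alternative settings. Both counts stand beside 29.7% of all genes called lower.

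Some genes were listed at 0 in every pool of 1 stage. There were 288 such genes at E10.5, of which 42.4% were called higher at E13.5, and 191 at E13.5, of which 67 were called lower. Their direction is a consequence of the choice, and they could pass the filter only through pools of the other groups. The counts are therefore not comparable with the 22.1% called higher and 29.7% called lower among all genes. Of the genes at 0 at E10.5, the 8 with the highest mean E13.5 level are named, whether called or not. Protein-coding genes among them were Ralyl, an RNA-binding protein with 7.86 to 19.2 RPKM at E13.5 (median 16.3), Nkain2, a membrane protein with 2.14 to 23.3 RPKM (median 16.5), and Palm2, with 7.12 to 17.9 RPKM (median 12.7). The others were Gm21954 and the short non-coding genes Gm24895, Gm24510, Gm25749 and Gm24876, for which RPKM is unstable. Absent at E13.5 were Lin28a, the ETS factor Etv4, with 2.92 to 9.41 RPKM at E10.5 (median 7.08), the histone gene Hist1h3b (median 9.70 RPKM, reads may be shared with its copies), Guca1a (8.34), Mogat2 (5.92), Trabd2b (5.93), Raet1e (5.49) and C330021F23Rik (14.2). A value of 0 does not show absence of the RNA, since the read counts behind it are not known.

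Other genes hardly differed between the stages. For 4561 genes the 95% interval of the log2 difference lay within -1 to 1. Among genes with a mean of at least 100 RPKM at E10.5, those closest to 0 with an interval inside -0.5 to 0.5 were Ap1s1 and Dstn, which act in vesicle coats and actin turnover, Sin3b, a corepressor, Psmd13, a proteasome subunit, and Nabp2, a protein that binds single-stranded DNA. Sin3b ranged from 125.3 to 147.9 RPKM at E10.5 (median 136.3) and from 120.8 to 148.5 RPKM at E13.5 (median 137.6). Its log2 difference was 0.00 ± 0.08 and the pools of the stages covered the same range.

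Single cells of the same series show what such pools can be made of. Cells with Lmx1a at an RPKM of at least 10 numbered 98 at E10.5 (71.5% of the cells of that stage), 38 the day after (42.2%), 90 at E12.5 (50.6%) and 73 at E13.5 (50.3%). They are tied to no embryo by the labels, so each stage is 1 sample, no test was made, and the exact 95% Clopper-Pearson intervals cover counting error only. Mapt at an RPKM of at least 10 was found in 3 of 98 cells at E10.5 (3.06%, interval 0.636% to 8.69%), 16 of 38 (42.1%) at E11.5, 50 of 90 (55.6%) at E12.5 and 51 of 73 at E13.5 (69.9%, 58% to 80.1%). Top2a was found in 65 of 98 (66.3%, 56.1% to 75.6%), 4 of 38 (10.53%), 10 of 90 (11.1%) and 3 of 73 cells (4.11%, 0.856% to 11.54%). In cells chosen by EGFP at an RPKM of at least 10 in place of Lmx1a, the Mapt share at E13.5 was 35.9%. In cells chosen by Lmx1a, the largest step of both shares between neighbouring stages lay between E10.5 and E11.5. The E11.5 intervals were wide, 26.3% to 59.2% for Mapt and 2.94% to 24.8% for Top2a. The E11.5 shares of cells chosen by EGFP are not given here, so this timing is not shown for them.

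Both genes at that level in 1 cell were rare. Mapt and Top2a were both found in 1 of 98 cells at E10.5 and in 0 of 38, 0 of 90 and 0 of 73 at the later stages. At E10.5, 31 of 98 cells had neither. Vtn was found in 54 of 98 cells at E10.5 (55.1%), 1 of 38, 0 of 90 and 2 of 73. Mcm6 was found in 79 of 98 (80.6%), 7 of 38, 16 of 90 and 7 of 73 cells (9.59%). Nr4a2 was found in 7 of 98 (7.14%), 24 of 38 (63.2%), 59 of 90 (65.6%) and 46 of 73 cells (63%), while Pitx3 was found in 0 of 98, 2 of 38, 12 of 90 (13.3%) and 18 of 73 cells (24.7%). The share with Nr4a2 was close to its E13.5 value by E11.5, and the share with Pitx3 was still larger at E13.5 than at E12.5 by counts whose intervals overlap (7.08% to 22.1% and 15.3% to 36.1%).

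**Figure D4:**
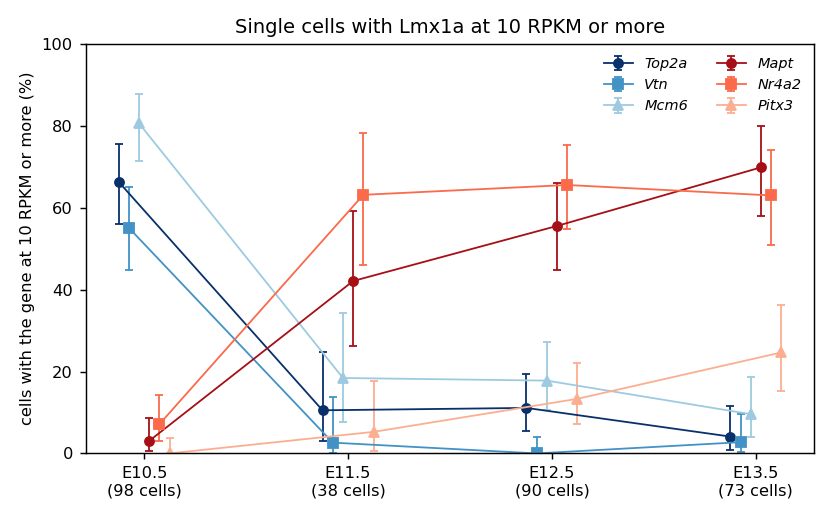
Share of single cells with Lmx1a at an RPKM of at least 10 that also had Top2a, Vtn, Mcm6, Mapt, Nr4a2 or Pitx3 at that level (vertical axis, percent) at E10.5, E11.5, E12.5 and E13.5, with exact 95% intervals as bars. Top2a, Vtn and Mcm6 cells are most frequent at E10.5 and Mapt cells at E13.5.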

How the data were processed

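Levels of RNA were measured in 24 pools of 100 cells, 6 for each stage and GFP class, and in 550 single cells, grouped as the labels state. The pool table deposited by the authors holds RPKM, and the single-cell table deposited by the authors holds log2 values, formed as log2(RPKM + 0.001) as the lowest value shows and turned back into RPKM here. The submitters' processing notes name STAR 2.3.0 and mm10. How reads were counted, with or without strand, and on which annotation is not stated in the sources used here, so reads of overlapping or antisense genes and of near-identical copies cannot be told apart. RPKM are relative, so a gene's value also depends on the rest of its pool. Coordinates are from the GENCODE M21 annotation of that build.

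A gene was tested if 6 or more of the 24 pools had an RPKM of 1 or above (15871 of 23706 genes), and 740 on X or Y were tested but left out of counts, leaving 15131, of which 159 had no chromosome in the annotation. limma 3.58.1 (R 4.3.3) was fitted to log2(RPKM + 1) on 4 group means with moderated, trended variances and Benjamini-Hochberg adjustment. The classes share 1 estimate of the spread. For EGFP the test was an exact permutation in Python 3.11. On simulated data for this comparison, the fit recovered 66% of 100 genes changed 2-fold and 98% of 100 changed 4-fold, with 8 false calls among 172 (15871 genes). All changed genes were raised and lay above 10 RPKM at E10.5, with normal noise, and they were far fewer than the genes called in the data. Recovery of low or falling genes was therefore not measured.

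Genes named were the markers, the 15 largest non-overlapping called differences in each direction with a mean of at least 10 RPKM, the 10 most unequal between classes in each direction among genes called in GFP positive pools, the 8 highest of those at 0 in 1 stage, the 5 steadiest with a mean of at least 100 RPKM, and examples from 27 gene lists. Some genes that this rule names are not reported here. The comparison, its markers and the lists were chosen with earlier results of these data known. Depth was estimated from the step between low values and is rough. Alternatives changed the pseudocount, the filter, the scaling, the variance model, the pools entering the fit and the single-cell threshold.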

Additional observations from a re-analysis of the deposited data

Results flagged for a closer look

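A pool stood apart in 10 of the groups of 6 values examined (8.33%), by the gap to its neighbour as a share of the range. The rate of about 1 in 20 for this rule holds for normally distributed values and cannot be set beside that share. Where all other pools were at 0, as for Car4 at E13.5, any value above 0 stood apart. At E13.5 the lowest pool stood apart for Calb2 (61.4 RPKM), Arhgap20 (45.1 RPKM) and Gm24895 (0 RPKM), and the highest for Car4 (0.441 RPKM), Fcgrt (6.42 RPKM) and Hba-x (1.45 RPKM). At E10.5 the highest pool stood apart for E130114P18Rik (2.19 RPKM), Syt10 (1.66 RPKM) and Ret (0.351 RPKM), and the lowest for Hist1h3b (0 RPKM).

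Among the genes named as markers or by rank, examples from gene lists not counted, the stage difference of 34 differed between GFP positive and GFP negative pools in the limma test of that difference (log2, GFP positive minus GFP negative, E13.5 minus E10.5). It was above 0 for Mapt (3.496), Ndst3 (2.85), Celf5 (2.32), Calb2 (2.43), St8sia3 (3.68), Sez6l (2.40), Nmnat2 (2.67), Neurod6 (1.49), Actl6b (2.67), Dnajc6 (1.92), Nefm (3.69) and Syt10 (3.78). The same held for Pitx3 (5.89), Slc6a3 (4.60), Th (3.88), Slc10a4 (3.82) and Ret (3.76), genes of dopamine neurons, and for Arhgap20 (3.73) and E130114P18Rik (3.58). For Hba-x (5.71) and Igf2 (4.78) the GFP negative pools of E10.5 held high levels of red blood cell and mesenchyme genes, whose part was not tested. It was below 0 for Car4 (-2.28), Dkk2 (-3.80), Calca (-3.35), Lrtm1 (-1.47), Aldh1a1 (-3.40), Wnt1 (-3.32) and Trabd2b (-2.22), and for Tcf7l2 (-4.28), Nav3 (-3.52), Nkx2-1 (-3.45), Cartpt (-3.41), Nkx2-4 (-3.25) and Foxb1 (-3.24).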

How the results depend on the processing

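Counts of called genes stayed within 1.5 times under all alternatives run. In GFP positive pools they were 2813 to 3580 higher and 3828 to 4697 lower, and 3178 to 3310 higher and at most 4413 lower when each of the 12 pools was left out in turn. The lowest counts came without the 3 shallowest E10.5 pools. In GFP negative pools they were 2554 to 3442 and 3545 to 3992. The difference between classes gave 535 to 570 above 0 and 206 to 310 below 0, and 535 to 691 and 230 to 327 when 1 pool was left out. EGFP differed by -152.6 to -140.5 RPKM without 1 pool (exact permutation test, p = 0.00433). The stages did not overlap for EGFP, so that p-value is the smallest the test can return without 1 pool and does not measure robustness. Of 203 named genes with a value, 27 were not called. Of the called genes 11 lost the call under some alternative (Cartpt, Cdkn1a, Cdon, Corin, Fzd10, Gad1, Gli1, Hba-x, Hbb-y, Olig2 and Rspo2). The other called genes kept it under each alternative that gave a value. Of the genes not called, 8 were called in some (Barhl2, Col3a1, Dpf2, Dpysl2, Hbb-bh1, Lmx1a, Lmx1b and Sox9). Among the called genes 0 changed direction, and directions were not compared for the genes not called. The median of all genes was -0.135 as deposited, -0.0732 after quantile normalization and -0.0746 after centring. Of 248 single-cell shares under alternatives, 52 left their interval, among them Vtn at E10.5 at an RPKM of at least 1 (81.6%) and Mapt at E13.5 in cells chosen by EGFP (35.9%). No paired analysis was possible because the labels give no replicate numbers shared between groups. Depth limits low genes: the reads behind a value of 0 are not known, and shares cover counting error only.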
